A study of Mus musculus with 12 samples.

Results

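The genes described here are 37 genes of the interferon response, chosen by name from a list and found as rows of a count table with 23358 rows: 8 immunity GTPases, 6 genes of class I antigen presentation, and 23 antiviral genes (15 effectors, 3 RNA sensors, 4 transcription factors and 1 chemokine). All 37 had a row, and 32 passed the filter on low counts. Their RNA was measured in mouse bone marrow-derived mesenchymal stem cells (MSCs), stromal cells that attach to plastic and can form bone, fat and cartilage. The 3 treated groups received cytochalasin D (CytoD), which caps the growing ends of actin filaments; CK666 (CK), an inhibitor of Arp2/3, the complex from which new actin branches grow; or both compounds (CytoD+CK), each for 24 h. The fourth group was labelled as having no treatment (Ctrl). Each group had 3 libraries, and all cells grew in medium with 10% serum and had been plated 1 day earlier at 10000 cells per square centimetre. No source used here gives the concentrations, the solvent or the strain, age and sex of the mice. Whether replicates came from separate animals or cultures is also unstated, and p-values therefore reflect only how these libraries vary, which may be technical.

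Interferons are secreted when cells sense viruses or other microbes. Type I interferons act through the receptor Ifnar1/Ifnar2 and a complex with Stat2 and Irf9 that binds a DNA element called ISRE, and interferon gamma acts through Ifngr1/Ifngr2 and a DNA element called GAS. Among the induced genes, immunity-related GTPases (IRG) and guanylate-binding proteins (GBP) attack the vacuoles of intracellular parasites and bacteria, class I antigen presentation genes carry peptides to the cell surface, and antiviral effectors block viral replication. In mesenchymal stromal cells, interferon gamma is known for inducing an immunosuppressive state.

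RefSeq promoters (build GRCm38.p6, 250 bases before to 50 bases after a start site) were matched by symbol for 28 of the 37 genes, and were searched for the core of the ISRE, GAAANNGAAA, and the core of the GAS, TTCNNNGAA, on both strands. The ISRE core was found in 17 of these 28 promoters (60.7%), against 1131 of all 32851 promoters of the same length (3.44%), and the GAS core in 8 (28.6%) against 8.3%. The 7 windows shown run from 160 bases before to 10 bases after the start site, 5′ to 3′ on the gene's strand, with motif matches in capitals (either motif; tandem matches overlap each other). They are shown because they belong to genes that differed in direction: Igtp, Irgm2, Gbp3 and B2m were called higher in CytoD, Irgm1 was called lower, Ifit3 was called lower only with both compounds, and Isg15 was not called against Ctrl with either compound or both.
Igtp, chr11:58199396-58199565, plus strand: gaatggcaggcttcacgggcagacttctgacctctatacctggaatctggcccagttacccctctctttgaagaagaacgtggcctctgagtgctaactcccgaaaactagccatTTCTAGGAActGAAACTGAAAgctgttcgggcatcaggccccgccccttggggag
Irgm2, chr11:58214817-58214986, plus strand: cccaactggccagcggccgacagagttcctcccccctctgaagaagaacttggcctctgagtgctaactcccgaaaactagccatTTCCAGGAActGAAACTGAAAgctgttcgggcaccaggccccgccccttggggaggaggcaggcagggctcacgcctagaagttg
Gbp3, chr3:142559884-142560053, plus strand: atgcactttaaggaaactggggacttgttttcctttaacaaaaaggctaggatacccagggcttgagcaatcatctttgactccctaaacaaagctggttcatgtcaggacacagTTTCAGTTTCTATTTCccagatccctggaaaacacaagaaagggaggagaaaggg
B2m, chr2:122147527-122147696, plus strand: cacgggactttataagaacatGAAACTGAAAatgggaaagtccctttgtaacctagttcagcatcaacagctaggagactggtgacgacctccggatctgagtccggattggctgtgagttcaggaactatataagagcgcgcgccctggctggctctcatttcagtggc
Irgm1, chr11:48871411-48871580, minus strand: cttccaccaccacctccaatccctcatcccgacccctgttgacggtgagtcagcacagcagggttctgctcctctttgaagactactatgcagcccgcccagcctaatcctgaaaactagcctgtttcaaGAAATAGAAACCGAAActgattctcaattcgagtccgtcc
Ifit3, chr19:34583369-34583538, plus strand: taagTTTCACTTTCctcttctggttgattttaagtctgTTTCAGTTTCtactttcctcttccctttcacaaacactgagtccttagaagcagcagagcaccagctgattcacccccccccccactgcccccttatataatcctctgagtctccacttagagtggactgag
Isg15, chr4:156200809-156200978, minus strand: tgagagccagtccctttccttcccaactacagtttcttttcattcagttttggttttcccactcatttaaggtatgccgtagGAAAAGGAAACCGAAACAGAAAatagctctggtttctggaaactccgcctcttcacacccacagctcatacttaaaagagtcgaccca

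The ISRE core thus stood in the promoters of genes that were called higher, called lower and not called: after CytoD it was in 4 of 6 matched genes called higher, in 1 of 2 called lower and in 10 of 18 not called. Iigp1, Gbp6, Nlrc5, Usp18 and Dhx58 were also called higher after CytoD but had no matched promoter, so they are missing from these counts. The first base of the ISRE core lay 34 bases before the start in Igtp, 64 in Irgm2, 139 in B2m, 30 and 24 in Irgm1 and 45 and 39 in Gbp3, where it is on the opposite strand. In Igtp and Irgm2 the GAS core lay just before it, 45 and 75 bases before the start, and the 2 windows share an identical run of 38 bases. No match in a window says only that these letters are not there. None was found for either motif in the 300 bases of Tap1, H2-K1 or H2-D1.

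The sum of counts per library was 48930210 to 69269716, and with 0 counts in the shallowest library a level of up to 0.0613 CPM remains possible (3 counts, counting error only). All counts were even numbers. If each fragment was counted more than once, this limit and the floors of 3 counts used below are too low, which was not tested. Levels are TMM-scaled CPM, counts scaled to a common library size and composition; levels of different genes are compared only in RPKM, which is per length. Changes are log2 fold changes ± SE from edgeR's quasi-likelihood test over 13534 genes, and genes with a Benjamini-Hochberg adjusted p under 0.05 were called and are said to rise or fall. The 3 comparisons against Ctrl share the same Ctrl libraries. CK replicate 3 stood apart from its group, differing from the other CK libraries by a median of 0.289 and 0.276 in absolute log2 level per gene, against 0.126 between those. These differences correlated with log2 gene length across genes (r = -0.377 and -0.465), where every other pair of libraries within a group had r between -0.0913 and 0.0964. Of 10 stromal markers, Pdgfra, Pdgfrb, Cxcl12 and Vcam1 were at 172 CPM or more in each group's mean, Ly6a was at 23.4, 13.2 and 8.51 CPM in CytoD, CK and CytoD+CK against 69.1 CPM in Ctrl, Lepr, Eng, Nt5e and Cspg4 were at group means of 0.16 to 2.3 CPM, and Thy1 was at 0.0263 CPM or less. The leukocyte markers Ptprc, Emr1, Tyrobp, H2-Aa, Cd3e and Ms4a1 were at 0 in all 12 libraries, while 6 of the 14 macrophage markers passed the filter, among them Lyz2, Cd14, Csf1r and Cd74 at group means of 0.672 to 5.33 CPM.

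Of the 32 genes tested, 11 rose and 2 fell after CytoD, 8 rose and 3 fell after CK, and 8 rose and 4 fell with both compounds. Among all tested genes, 19.1% were called higher and 18.9% lower after CytoD, 22.5% and 18.7% after CK, and 24.4% and 21.6% with both. Of the 8 immunity GTPases, 5 rose and 1 fell after CytoD, against 3 and 1 after CK and 3 and 1 with both. Of the 6 antigen presentation genes, 4, 5 and 4 rose and none fell. Of the 18 antiviral genes tested, 2 rose and 1 fell after CytoD, none rose and 2 fell after CK, and 1 rose and 3 fell with both. The gene that rose with both, Cxcl10, passed the filter only through that group. The median log2 change was 1.08, 0.52 and 0.57 over the GTPases, 0.62, 0.72 and 0.76 over antigen presentation and 0.28, 0.11 and 0.04 over the antiviral genes, beside 0.02, 0.03 and 0.04 over all genes tested (in the order CytoD, CK and both). Without CK replicate 3, 12 rose and 3 fell after CytoD, 8 rose and 3 fell after CK, and 9 rose and 6 fell with both; calls over all genes then numbered 6924 in place of 5136 after CytoD, 5816 in place of 5565 after CK and 7735 in place of 6225 with both. With RLE size factors the balance over all genes turned after CytoD, at 2551 higher and 2594 lower in place of 2580 and 2556, after CK, at 2658 higher and 2878 lower in place of 3040 and 2525, and with both, at 3000 and 3176 in place of 3303 and 2922. In bulk RNA, fewer cells of a type and less RNA per cell cannot be told apart.

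**Figure D1:**
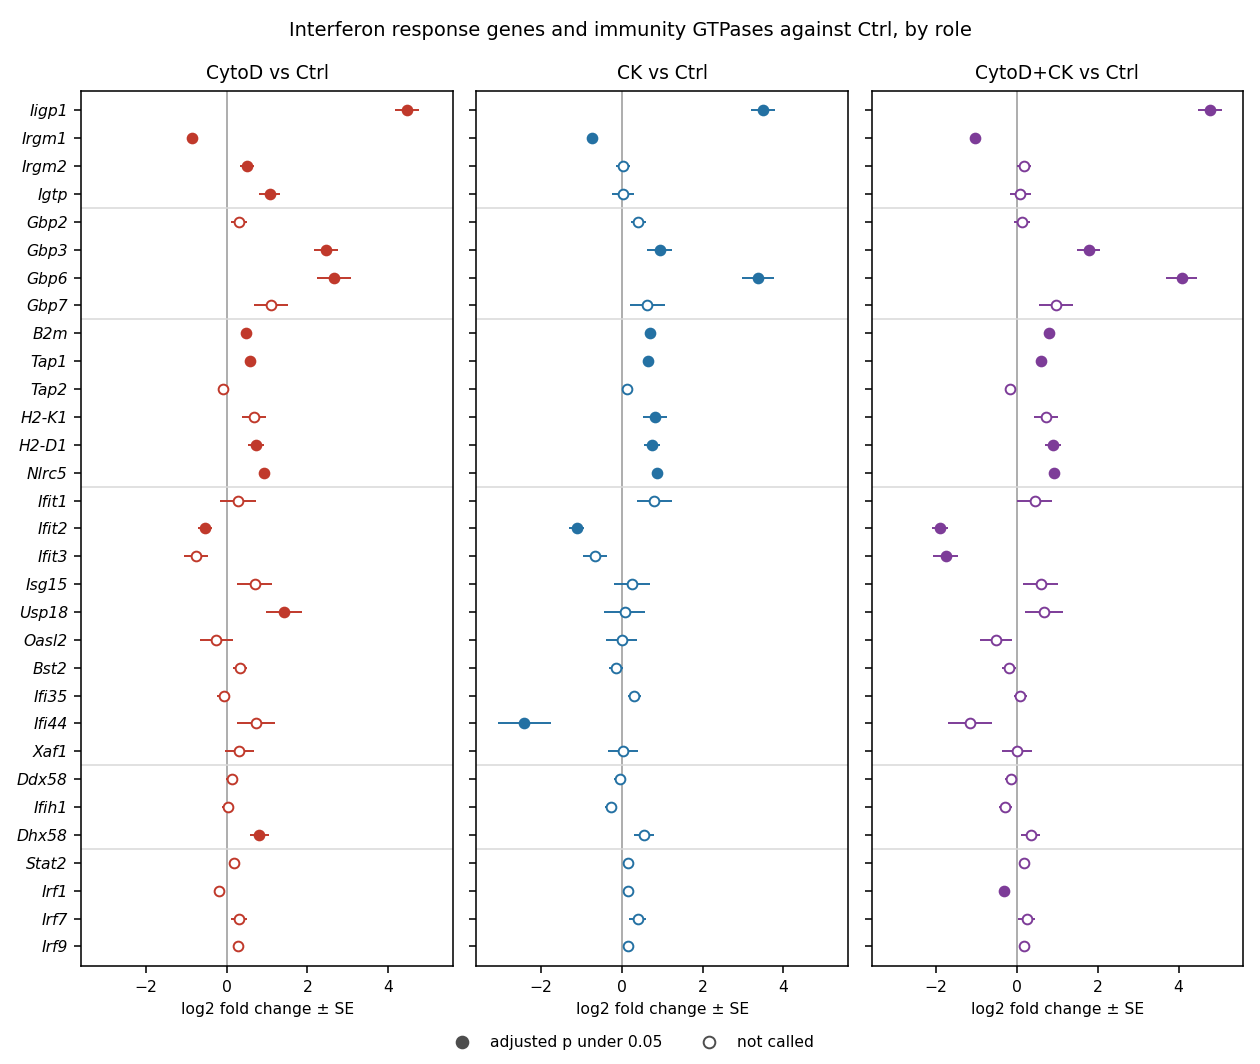
Log2 fold change with SE (x axis) of 31 tested genes (rows, grouped by role from IRG GTPases at the top to transcription factors) in CytoD, CK and CytoD+CK against Ctrl; filled points have an adjusted p under 0.05. Iigp1 and Gbp6 lie farthest to the right in each panel, Ifit2 is left of 0 in all 3, and most antiviral genes are open points near 0. Cxcl10 is left out because its counts in Ctrl were all 0.

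Iigp1 was the immunity GTPase with the largest rise. It encodes Irga6, an IRG protein that coats and disrupts parasite vacuoles, and its row lies on chromosome 18, 60376029 to 60392629 (GRCm38, plus strand). Iigp1 stood at 13.3, 10.8 and 11.4 CPM in CytoD, at 5.59, 7.0 and 5.48 CPM in CK, at 11.2, 16.1 and 17.1 CPM in CytoD+CK, and at 0.896, 0.254 and 0.451 CPM in Ctrl. Every treated library was above every Ctrl library, and the CytoD and CytoD+CK libraries were all above the CK libraries. The log2 change was 4.46 ± 0.29 after CytoD (adjusted p = 6.05e-07), 3.49 ± 0.30 after CK (adjusted p = 1.74e-06) and 4.78 ± 0.29 with both (adjusted p = 6.04e-08). CytoD exceeded CK by 0.98 ± 0.22 (adjusted p = 0.00423).

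Gm4951 and F830016B08Rik, further IRG genes that are not among the 37, lie beside Iigp1, all 3 genes within 180553 bases. Gm4951 stood at 16.3, 14.1 and 14.0 CPM in CytoD, at 5.4, 4.57 and 4.47 CPM in CK, at 8.73, 12.2 and 12.1 CPM in CytoD+CK, and at 0.977, 0.719 and 0.564 CPM in Ctrl, so it rose 19.7-fold, 6.39-fold and 14.6-fold. F830016B08Rik rose 7.92-fold after CytoD, to 1.5 ± 0.436 CPM, and 8.47-fold with both, to 1.59 ± 0.167 CPM, against 0.185 ± 0.142 CPM in Ctrl. After CK it was at 0.336 ± 0.164 CPM (adjusted p = 0.247). All 3 genes of this chromosome 18 cluster were called higher after CytoD, where 19.1% of all genes tested were. The cluster was drawn after the values were seen. Reads of near-identical IRG, GBP and class I genes may have been split between copies, and this was not tested.

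The other 3 IRG genes among the 37 lie in 2 clusters on chromosome 11, and the calls differed between them; the clusters were drawn after the values were seen. Irgm1, a regulator that keeps effector GTPases off the cell's own membranes (48865249 to 48871346, minus strand), was at 26.2, 24.0 and 22.7 CPM in CytoD, at 29.8, 24.8 and 25.0 CPM in CK, at 25.1, 21.3 and 18.5 CPM in CytoD+CK, and at 42.6, 44.4 and 45.9 CPM in Ctrl. Every treated library was below every Ctrl library. It fell by 0.87 ± 0.11 on the log2 scale after CytoD (adjusted p = 5.37e-05), by 0.74 ± 0.11 after CK (adjusted p = 0.000148) and by 1.03 ± 0.11 with both (adjusted p = 5.72e-06). Its neighbour Ifi47, also an IRG gene, was lower as well, with 5.47 ± 0.956, 4.52 ± 0.417 and 3.69 ± 0.872 CPM in CytoD, CK and CytoD+CK, against 7.82 ± 0.58 CPM in Ctrl (1.43-fold, 1.73-fold and 2.12-fold lower). The first of these calls was lost without Ctrl replicate 1 or 2 or CytoD replicate 2 or 3 (adjusted p = 0.0763, 0.0552, 0.102 and 0.103), and the span of Ifi47 overlaps that of Olfr56.

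Igtp and Irgm2 form the other chromosome 11 cluster, with 2 tested genes within 38941 bases, and both rose after CytoD but were not called after CK or with both compounds. Igtp, known as Irgm3 and also a regulator of IRG effectors (58199556 to 58207592, plus strand), was at 1.64, 1.88 and 2.09 CPM in CytoD, at 1.02, 0.928 and 0.782 CPM in CK, at 0.813, 1.27 and 0.741 CPM in CytoD+CK, and at 1.18, 0.719 and 0.789 CPM in Ctrl. The 3 CytoD libraries lay above all 9 others. Igtp rose by 1.06 ± 0.26 after CytoD (adjusted p = 0.00594), while its log2 change was 0.02 ± 0.27 after CK (adjusted p = 0.961) and 0.08 ± 0.27 with both (adjusted p = 0.826). CytoD exceeded CK by 1.04 ± 0.26 (adjusted p = 0.00645), and adding CK to CytoD lowered Igtp by 0.98 ± 0.25 (adjusted p = 0.0108, log2 change -0.98).

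Irgm2, the third regulator of the family, was at 8.55, 7.79 and 7.65 CPM in CytoD, at 7.84, 4.91 and 4.54 CPM in CK, at 6.54, 6.07 and 6.56 CPM in CytoD+CK, and at 6.47, 5.12 and 5.41 CPM in Ctrl. The CytoD libraries lay above the Ctrl libraries, but CK replicate 1 lay among the CytoD libraries. The rise of 0.50 ± 0.18 after CytoD (adjusted p = 0.0408) was lost when any of the CytoD libraries (adjusted p = 0.0738 to 0.112), any of the CytoD+CK libraries (0.0509 to 0.0551) or Ctrl replicate 2 or 3 (0.135 and 0.113) was left out.

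Of the 4 GBP genes, Gbp3 and Gbp6 rose in each treated group and Gbp2 and Gbp7 were not called. Gbp3 (chromosome 3, 142560052 to 142573212) was at 1.81, 1.95 and 1.34 CPM in CytoD, at 0.67, 0.58 and 0.532 CPM in CK, at 0.887, 1.07 and 1.2 CPM in CytoD+CK, and at 0.448, 0.211 and 0.263 CPM in Ctrl. Its groups did not overlap, with CytoD highest, then CytoD+CK, CK and Ctrl. The log2 change was 2.46 ± 0.29 after CytoD (adjusted p = 3.67e-05), 0.94 ± 0.31 after CK (adjusted p = 0.0283) and 1.77 ± 0.30 with both (adjusted p = 0.00031), and CytoD exceeded CK by 1.52 ± 0.27 (adjusted p = 0.000776). The call after CK was lost without CK replicate 1 or Ctrl replicate 2 or 3 (adjusted p = 0.0714, 0.108 and 0.104) and when CK and Ctrl were fitted alone (adjusted p = 0.0757).

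Gbp6 had another order of groups. Gbp6 (chromosome 5, 105270702 to 105293699) was at 0.493, 0.436 and 0.614 CPM in CytoD, at 0.748, 0.735 and 1.06 CPM in CK, at 0.887, 1.75 and 1.52 CPM in CytoD+CK, and at 0.0814, 0.0846 and 0.0751 CPM in Ctrl, where each library held 4 counts. CytoD libraries were all below the CK libraries, and both were above Ctrl. It rose 6.26-fold after CytoD, 10.4-fold after CK and 16.9-fold with both (adjusted p = 0.000327, 2.74e-05 and 2.27e-06), and adding CK to CytoD raised it by 1.43 ± 0.29 (adjusted p = 0.00244). The difference between CytoD and CK, -0.73 ± 0.30, was not called (adjusted p = 0.0682). Its neighbour Gbp11, with 0 counts in each Ctrl library, was at 0.296, 0.339 and 0.635 CPM with both compounds, 7.02-fold above a floor of 3 counts per Ctrl library. Gbp11 passed the filter only through CytoD+CK. Its call after CytoD (adjusted p = 0.0463), on counts of 0, 8 and 10, was lost in 10 alternatives (0.0535 to 0.128).

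Gbp2 was measured at 5.11 ± 0.213 CPM in CytoD, 5.51 ± 0.421 CPM in CK and 4.51 ± 1.24 CPM in CytoD+CK, against 4.15 ± 0.849 CPM in Ctrl (adjusted p = 0.244, 0.105 and 0.637), with CytoD+CK replicate 1 lowest at 3.11 CPM. Gbp2 was called after CK when that library was left out (adjusted p = 0.0355). Gbp7 was at 0.853 ± 0.169, 0.632 ± 0.358 and 0.787 ± 0.0542 CPM in CytoD, CK and CytoD+CK, against 0.4 ± 0.1 CPM in Ctrl (adjusted p = 0.0563, 0.259 and 0.0737). CK replicate 3 was at 0.219 CPM, against 0.827 and 0.851 CPM in the other CK libraries. Without it Gbp7 was called higher in all 3 comparisons (adjusted p = 0.00682, 0.0189 and 0.0122).

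**Figure D2:**
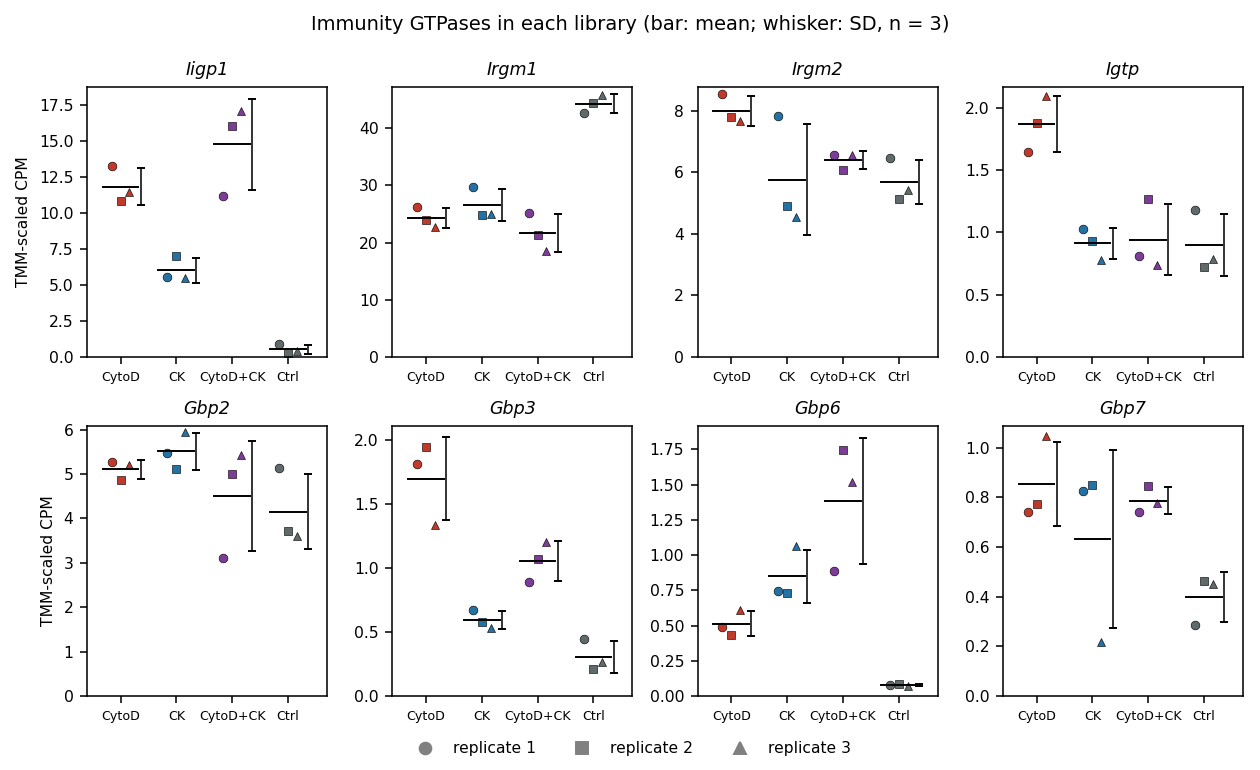
TMM-scaled CPM (y axis, from 0) of the 8 immunity GTPases in CytoD, CK, CytoD+CK and Ctrl (x axis); each point is a library, shaped by replicate number, with the mean as a bar and the SD over 3 libraries as a whisker. Iigp1, Gbp3 and Gbp6 are lowest in Ctrl, Irgm1 is highest in Ctrl at 42.6 to 45.9 CPM, and Igtp is highest in CytoD.

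The summed level of 14 macrophage markers was 14.73 to 16.03 CPM in CytoD, 8.39 to 11.1 CPM in CK and 9.39 to 10.1 CPM in CytoD+CK, against 11.2 to 12.5 CPM in Ctrl. It was thus highest in CytoD and lower in CK and CytoD+CK than in Ctrl, but single markers differed in direction. Of the 6 tested, 2 were called higher and 0 lower after CytoD, 1 and 3 after CK, and 2 and 3 with both. Among all genes these shares were 19.1% and 18.9%, 22.5% and 18.7%, and 24.4% and 21.6%. Lyz2, a lysozyme gene, made up 5.33 CPM of the sum in CytoD, against 1.56 CPM in Ctrl. The defining markers Ptprc and Emr1 were at 0 in all 12 libraries. The sum of stromal markers, led by Cxcl12, was 18671 to 21487 CPM in CytoD, 6152 to 7797 CPM in CK and 6457 to 6689 CPM in CytoD+CK, against 8274 to 12099 CPM in Ctrl. The part of these differences in the results was not tested.

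Of the class I antigen presentation genes, B2m, Tap1, H2-D1 and Nlrc5 rose in all 3 treated groups. B2m, the light chain shared by class I molecules, was the most abundant of the 32 genes per length, at 1049 ± 101 RPKM in CytoD, 1257 ± 142 RPKM in CK and 1316 ± 93.7 RPKM in CytoD+CK, against 719 ± 43.7 RPKM in Ctrl. In CPM it was at 1159, 949 and 980.2 in CytoD, at 1131, 1095 and 1364 in CK, at 1399, 1240 and 1202 in CytoD+CK, and at 777.9, 687.9 and 736.9 in Ctrl. No treated library overlapped Ctrl. B2m rose by 0.49 ± 0.10, 0.70 ± 0.10 and 0.80 ± 0.10 on the log2 scale (adjusted p = 0.00233, 0.00015 and 3.32e-05). Part of its span overlaps Patl2.

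Tap1, a subunit of the transporter that brings peptides into the endoplasmic reticulum (chromosome 17, 34187556 to 34197225), was at 45.0, 45.1 and 47.5 CPM in CytoD, at 46.9, 47.5 and 50.7 CPM in CK, at 44.5, 49.0 and 46.2 CPM in CytoD+CK, and at 32.2, 30.4 and 30.2 CPM in Ctrl. The 9 treated libraries lay within a narrow range above Ctrl. Tap1 rose by 0.57 ± 0.06, 0.64 ± 0.06 and 0.59 ± 0.06 (adjusted p = 2.36e-05, 6.19e-06 and 7.25e-06). Tap2, the partner subunit and its neighbour on the chromosome, was at 77.3, 69.3 and 66.2 CPM in CytoD, at 81.0, 78.3 and 88.8 CPM in CK, at 69.5, 65.7 and 64.5 CPM in CytoD+CK, and at 79.6, 68.4 and 77.6 CPM in Ctrl. Its groups overlapped with Ctrl, and no change against Ctrl was called (adjusted p = 0.45, 0.201 and 0.0998). The last of these was called without CK replicate 3 (log2 -0.20, adjusted p = 0.0245).

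Nlrc5, the transactivator of class I genes (chromosome 8, 94472763 to 94527272), was at 24.1, 25.4 and 26.2 CPM in CytoD, at 27.5, 25.6 and 19.8 CPM in CK, at 27.3, 23.2 and 24.0 CPM in CytoD+CK, and at 12.5, 15.0 and 12.2 CPM in Ctrl. All treated libraries were above Ctrl. It rose 1.91-fold, 1.83-fold and 1.87-fold (adjusted p = 7.35e-05, 0.0001 and 4.64e-05).

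The class I heavy chain genes H2-D1 and H2-K1, on chromosome 17, varied more between libraries. H2-D1 was at 215, 147 and 137 CPM in CytoD, at 178, 148 and 175 CPM in CK, at 241, 164 and 152 CPM in CytoD+CK, and at 121, 90.5 and 89.0 CPM in Ctrl. Each treated library exceeded every Ctrl library, and replicate 1 was the highest library in each group. H2-D1 rose by 0.73 ± 0.20, 0.74 ± 0.20 and 0.89 ± 0.20 (adjusted p = 0.0109, 0.00976 and 0.00246). The call after CytoD was lost without CytoD replicate 1 (adjusted p = 0.0575) or Ctrl replicate 3 (0.0512), and that after CK without Ctrl replicate 3 (0.0511).

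H2-K1 was at 98.9, 54.2 and 54.0 CPM in CytoD, at 88.4, 63.9 and 76.7 CPM in CK, at 105, 56.7 and 52.9 CPM in CytoD+CK, and at 58.5, 36.2 and 35.6 CPM in Ctrl. Here too replicate 1 was highest in every group, and the CytoD and CytoD+CK groups overlapped Ctrl through Ctrl replicate 1. H2-K1 was called after CK (log2 0.81 ± 0.30, adjusted p = 0.0434) and not after CytoD (0.67 ± 0.30, adjusted p = 0.0942) or with both (0.72 ± 0.30, adjusted p = 0.0636). Without Ctrl replicate 1 it was called after CytoD (adjusted p = 0.0424) and with both (0.0297), it was also called with both without CytoD replicate 1 (0.038) or CytoD+CK replicate 3 (0.0429), and the call after CK was lost without CK replicate 1 or 3 or Ctrl replicate 2 or 3 (0.112, 0.0724, 0.143 and 0.153). Replicate 1 was the highest of its group in all 4 groups for 7 of the 32 genes (21.9%), which are H2-K1, H2-D1, Ifit3, Isg15, Ifih1, Irf1 and Irf7, beside 509 of all 13534 genes (3.76%). No listed gene was highest in replicate 2, or in replicate 3, of all 4 groups. What sets replicate 1 apart was not tested.

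**Figure D3:**
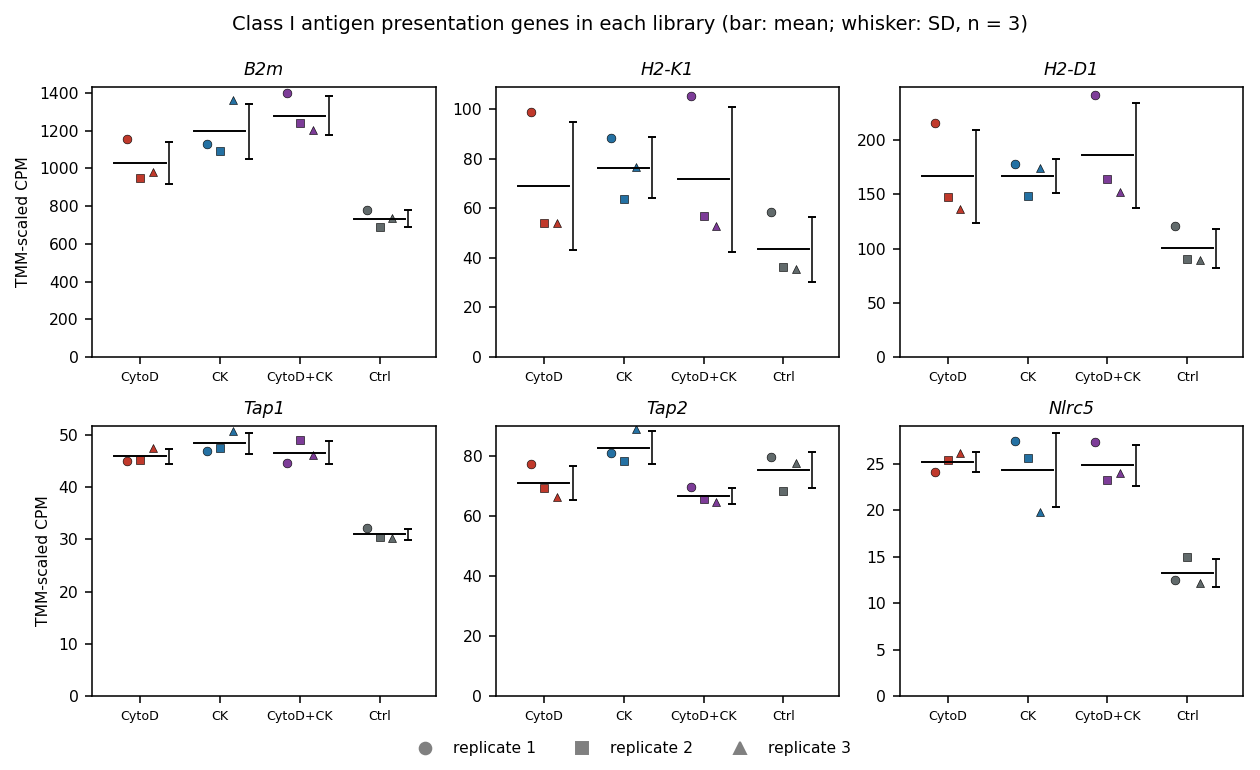
TMM-scaled CPM (y axis, from 0) of 6 class I antigen presentation genes in CytoD, CK, CytoD+CK and Ctrl (x axis), with points for libraries by replicate number, bars for means and whiskers for the SD over 3 libraries. B2m, Tap1 and Nlrc5 lie higher in all 9 treated libraries than in Ctrl, Tap2 overlaps, and replicate 1 (circle) tops each group of H2-K1 and H2-D1.

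The antiviral effectors were mostly low and mostly not called. Of 15, the 5 genes Rsad2, Mx1, Mx2, Oas1a and Oas2 did not pass the filter. Mx1, a GTPase active against influenza virus, had counts of 2, 2 and 4 in the CytoD+CK libraries and 0 in the other 9. Mx2 had counts in 3 libraries, Oas2 in 1 and Rsad2, which encodes viperin, in 8, never above 10. Oas1a had 0 counts in all 12 libraries, which allows up to 0.0613 CPM by the limit given above. These 5 genes were not tested.

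Of the IFIT genes, whose products bind RNA and restrain viral translation, Ifit2 fell in all 3 treated groups and Ifit3 with both compounds. Ifit2 (chromosome 19, 34550694 to 34576534) was at 33.0, 33.0 and 33.9 CPM in CytoD, at 29.5, 21.6 and 15.7 CPM in CK, at 16.4, 10.9 and 11.5 CPM in CytoD+CK, and at 48.7, 48.6 and 47.7 CPM in Ctrl. Every treated library was below Ctrl, and the CytoD+CK libraries were below all CytoD libraries. The log2 change of -0.54 ± 0.18 after CytoD (adjusted p = 0.0355) was lost when any one of the 6 CytoD and Ctrl libraries was left out (adjusted p = 0.0642 to 0.0902). It fell by 1.12 ± 0.19 after CK (adjusted p = 0.000432) and was 3.74-fold lower with both (adjusted p = 4.2e-06).

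Ifit3 was at 2.88, 2.35 and 1.77 CPM in CytoD, at 3.39, 1.9 and 2.19 CPM in CK, at 1.44, 1.21 and 0.812 CPM in CytoD+CK, and at 5.54, 2.92 and 3.34 CPM in Ctrl. CytoD libraries were below Ctrl libraries and CytoD+CK libraries below both, and the CK libraries overlapped Ctrl. Ifit3 was called lower with both compounds (log2 -1.77 ± 0.31, adjusted p = 0.000452) and not after CytoD (-0.76 ± 0.29, adjusted p = 0.0593) or CK (-0.66 ± 0.29, adjusted p = 0.0878). It was called after CytoD without Ctrl replicate 2, CK replicate 1 or CK replicate 3 (adjusted p = 0.0418, 0.0422 and 0.043), and after CK without CK replicate 1 (0.0287). Ifit1 was at 0.67 ± 0.171, 0.961 ± 0.533 and 0.739 ± 0.229 CPM in CytoD, CK and CytoD+CK, against 0.544 ± 0.239 CPM in Ctrl, with no call (adjusted p = 0.646, 0.153 and 0.439).

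Usp18, the protease that removes Isg15 from proteins and restrains type I interferon signals, was at 0.534, 0.436 and 0.542 CPM in CytoD, at 0.276, 0.232 and 0.0939 CPM in CK, at 0.296, 0.282 and 0.318 CPM in CytoD+CK, and at 0.326, 0.0846 and 0.15 CPM in Ctrl. The CytoD libraries lay above all others. Usp18 rose by 1.42 ± 0.45 after CytoD (adjusted p = 0.0256). Leaving out CytoD replicate 1, CytoD replicate 3, Ctrl replicate 2 or Ctrl replicate 3 ended this call (adjusted p = 0.0628, 0.075, 0.106 and 0.0965). Isg15, the ubiquitin-like modifier, was at 1.44 ± 0.541, 1.05 ± 0.408 and 1.34 ± 0.378 CPM in CytoD, CK and CytoD+CK, against 0.886 ± 0.538 CPM in Ctrl (adjusted p = 0.229, 0.685 and 0.295), and was called after CytoD without Ctrl replicate 1 (adjusted p = 0.0401). Ifi44 was at 0.332 ± 0.102 CPM in CytoD, 0.034 ± 0.0316 CPM in CK and 0.0881 ± 0.0163 CPM in CytoD+CK, against 0.2 ± 0.0798 CPM in Ctrl. Its fall after CK, 5.32-fold (adjusted p = 0.0109), rested on counts of 2, 0 and 4 in CK and 14, 6 and 10 in Ctrl. Ifi44 passed the filter only through CytoD, the group where it was highest. The other effectors Bst2, Ifi35, Oasl2 and Xaf1 were not called against Ctrl, with a lowest adjusted p of 0.145 for Ifi35 after CK, which was called higher without Ctrl replicate 1 (adjusted p = 0.0391).

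The cytosolic RNA sensors Ddx58 (RIG-I) and Ifih1 (MDA5) were not called. Ddx58 was at 16.8 ± 0.551, 15.0 ± 2.82 and 13.9 ± 2.06 CPM in CytoD, CK and CytoD+CK, against 15.4 ± 2.11 CPM in Ctrl (adjusted p = 0.552, 0.84 and 0.44), and Ifih1 was at 12.5 ± 1.24, 10.2 ± 2.27 and 10.1 ± 1.01 CPM, against 12.3 ± 1.81 CPM in Ctrl (adjusted p = 0.883, 0.184 and 0.153). Dhx58 (LGP2), a regulator of both, was at 1.85, 1.51 and 1.84 CPM in CytoD, at 1.65, 1.04 and 1.63 CPM in CK, at 0.961, 1.33 and 1.45 CPM in CytoD+CK, and at 1.18, 0.803 and 0.977 CPM in Ctrl. CytoD libraries did not overlap Ctrl. Dhx58 rose by 0.81 ± 0.24 after CytoD (adjusted p = 0.0186), which no longer passed when CytoD replicate 1, CytoD replicate 3, Ctrl replicate 2 or Ctrl replicate 3 was left out (adjusted p = 0.0516, 0.061, 0.0766 and 0.0585). It was called after CK without CK replicate 2 (0.0285).

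Of the transcription factors Stat2, Irf1, Irf7 and Irf9, none was called after CytoD or CK. Irf1, which is induced by interferon gamma and binds ISRE-like elements, was at 25.2, 21.4 and 23.3 CPM in CytoD, at 33.0, 27.0 and 29.3 CPM in CK, at 23.3, 20.9 and 19.8 CPM in CytoD+CK, and at 28.8, 26.9 and 24.1 CPM in Ctrl. It was lowest with both compounds, where it fell by 0.32 ± 0.10 (adjusted p = 0.0181), a call lost without Ctrl replicate 1 or 2 or CytoD+CK replicate 2 or 3 (adjusted p = 0.0521, 0.0518, 0.0594 and 0.0808). Irf9 was at 15.8 ± 1.0, 14.7 ± 2.37 and 14.9 ± 1.53 CPM, against 13.2 ± 0.87 CPM in Ctrl (adjusted p = 0.0875, 0.296 and 0.221), and was called after CytoD without CK replicate 1 (0.0468).

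Cxcl10, the chemokine that attracts T cells and the gene whose span lies in that of Art3, had counts of 0, 2 and 4 in CytoD, of 2, 0 and 0 in CK, of 14, 32 and 12 in CytoD+CK, and of 0 in each Ctrl library. Its level with both compounds was 0.307 ± 0.127 CPM, 5.1-fold above a floor of 3 counts per Ctrl library (adjusted p = 0.00113). Cxcl10 passed the filter only through CytoD+CK, the group where it was high, so its calls are not separate evidence of the rise. It was also called higher than in CytoD and than in CK (adjusted p = 0.0121 and 0.011), and these calls were lost without CytoD+CK replicate 2 (0.0615 and 0.0552), the call against CytoD also without CytoD replicate 2 (0.0534).

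**Figure D4:**
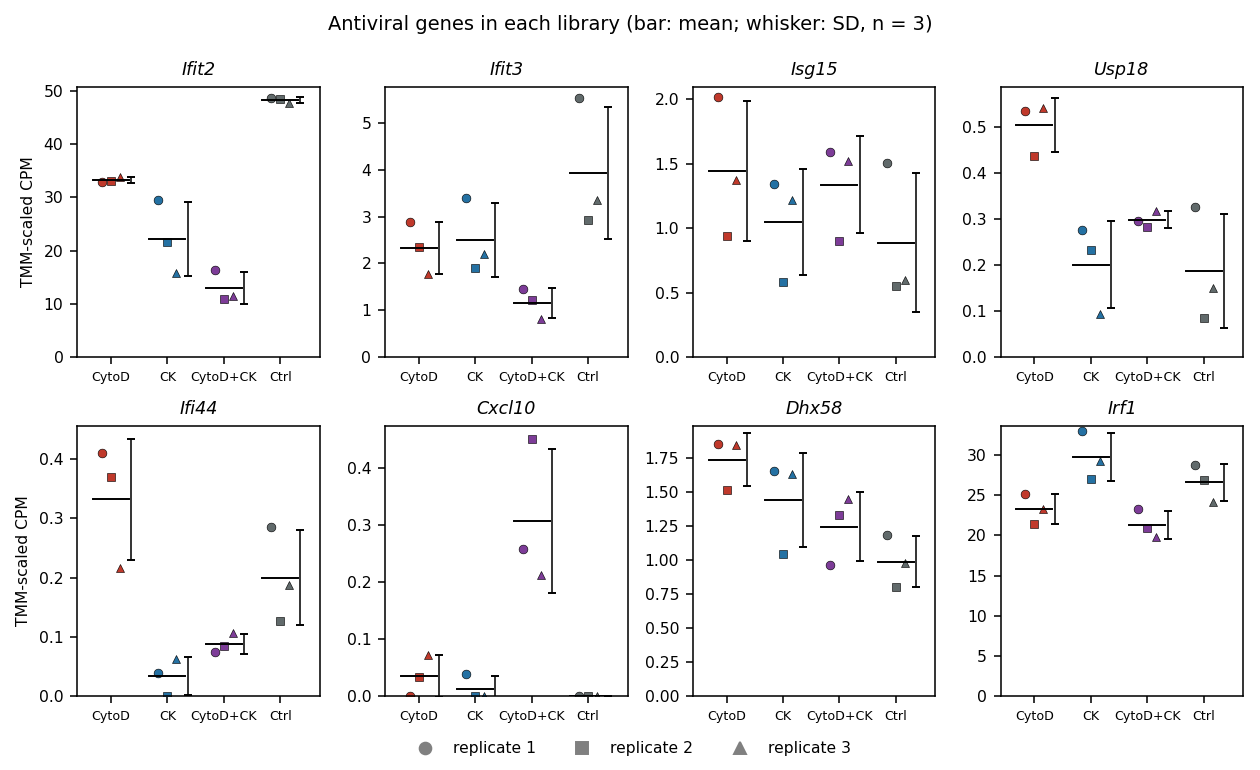
TMM-scaled CPM (y axis, from 0) of 8 antiviral genes in CytoD, CK, CytoD+CK and Ctrl (x axis); points are libraries by replicate number, bars are means and whiskers the SD over 3 libraries. Ifit2 lies at 10.9 to 16.4 CPM in CytoD+CK, against 47.7 to 48.7 CPM in Ctrl, Usp18 is highest in CytoD, and Cxcl10 is seen mainly in CytoD+CK.

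Set against each other, CytoD and CK differed in 10 of the 32 genes: 8 were higher in CytoD and 2 lower, where 16.8% and 22.9% of all genes were. Those higher in CytoD were Iigp1, Igtp, Irgm2, Gbp3, Ifit2, Usp18, Bst2 and Ifi44, and those lower were Tap2 and Irf1. Ifi44 passed the filter only through CytoD, the group where it was high, so its call is not separate evidence of that difference. Bst2, tetherin, which holds budding virus on the cell, was at 8.3, 8.12 and 7.87 CPM in CytoD and at 6.46, 4.18 and 6.85 CPM in CK (log2 0.47 ± 0.17, adjusted p = 0.0413). The calls of Iigp1, Igtp, Gbp3 and Ifi44 held in each fit that left out 1 library. Those of Irgm2, Tap2 and Bst2 were lost in 9, 8 and 6 of the 12 such fits, those of Ifit2 and Usp18 in 4 and that of Irf1 without CytoD replicate 2 (adjusted p = 0.0648). Without CytoD replicate 2 the count was 4, and without CytoD replicate 3 it was 5.

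Adding CK to CytoD raised Gbp6, B2m and Cxcl10 and lowered Igtp, Ifit2, Ifit3, Bst2 and Ifi44, 3 and 5 of 32 genes, against 15.8% and 14.3% of all genes. Ifi44 passed the filter only through CytoD and Cxcl10 only through CytoD+CK, so their calls are not separate evidence of these differences. Ifit2 was lower by 1.36 ± 0.19 on the log2 scale in CytoD+CK than in CytoD (log2 -1.36, adjusted p = 0.000181). The calls of Igtp, Gbp6 and Ifit2 held in each fit that left out 1 library, and those of B2m, Bst2, Ifit3, Ifi44 and Cxcl10 were lost in 6, 5, 4, 3 and 2 of the 12. Without CytoD replicate 1 the count was 5 in place of 8, and without CytoD replicate 2 or CytoD+CK replicate 2 it was 3. Adding CytoD to CK raised Iigp1 (log2 1.30 ± 0.22, adjusted p = 0.00237) and Cxcl10 and lowered Tap2, Ifit2, Ifit3 and Irf1, 2 and 4 of 32 genes, against 4.43% and 7.17% of all genes. The call of Iigp1 held in each alternative. That of Tap2 was lost without CytoD+CK replicate 2 or 3, CK replicate 3 or Ctrl replicate 3 (adjusted p = 0.0503 to 0.117), and that of Ifit2 without CytoD+CK replicate 2 or 3 or CK replicate 1 (0.058 to 0.0947). That of Ifit3 was lost without CytoD+CK replicate 2 or 3, CK replicate 1, CytoD replicate 2 or Ctrl replicate 3 (0.0506 to 0.157). When only these 2 groups were fitted, all 4 lower calls were lost (0.0589 to 0.133). The count was 2 without CytoD+CK replicate 2 and 3 without CytoD+CK replicate 3.

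The interaction was taken as the log2 change that CytoD gave on top of CK minus the one it gave alone. It was called for 6 of 32 genes, above 0 for Irgm1 and below 0 for Iigp1, Gbp3, Gbp6, Tap1 and Nlrc5, where 6.63% and 7.67% of all genes were called above and below 0. For Iigp1, CytoD raised the level by 4.46 in the absence of CK and by 1.30 in its presence, a difference of -3.17 ± 0.37 (adjusted p = 0.000303). Tap1 and Nlrc5 rose with CytoD alone, and their log2 changes when CytoD was added to CK were -0.05 ± 0.06 and 0.03 ± 0.12 (adjusted p = 0.603 and 0.88). Irgm1 fell by 0.87 with CytoD alone, and its change with CytoD in the presence of CK was -0.29 ± 0.11 (adjusted p = 0.0958). The calls of Iigp1, Tap1 and Nlrc5 held in each fit that left out 1 library. That of Irgm1 was lost without CytoD+CK replicate 1, CytoD replicate 2 or 3 or Ctrl replicate 2 or 3 (adjusted p = 0.0561 to 0.0713), that of Gbp3 without CytoD replicate 2 or Ctrl replicate 2 or 3 (0.0527 to 0.0546) and that of Gbp6 without CytoD replicate 3 or any Ctrl library (0.0596 to 0.0743). In these 6 genes the compounds together thus moved the level by less than the sum of their separate log2 changes.

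Outside the list, interferon transcripts were near or at 0. Ifng, Ifna1, Ifna2, Ifna4, Ifnk, Ifne, Il28a and Il28b had 0 counts in all 12 libraries, which allows up to 0.0613 CPM each by the limit given above, and Ifnb1 had 4 counts in 1 Ctrl library. Of 5 receptor genes tested, 1 rose and 1 fell after CytoD and after CK, and 2 rose and 1 fell with both. The shares of all genes called higher and lower were 19.1% and 18.9%, 22.5% and 18.7%, and 24.4% and 21.6%. Ifngr1, the ligand-binding chain of the interferon gamma receptor, was at 416, 403 and 416 CPM in CytoD, at 218, 198 and 222 CPM in CK, at 230, 232 and 249 CPM in CytoD+CK, and at 184, 172 and 174 CPM in Ctrl. It rose by 1.22 ± 0.07, 0.27 ± 0.07 and 0.42 ± 0.07 (adjusted p = 1.35e-07, 0.00587 and 0.000159), the call after CK being lost without Ctrl replicate 3 (0.0503). Ifngr2, the signalling chain, moved the other way, at 101 ± 2.07, 87.4 ± 1.55 and 84.7 ± 1.92 CPM against 144 ± 1.92 CPM in Ctrl, 1.43-fold, 1.65-fold and 1.7-fold lower. Ifnar1 was called with both only (log2 0.23 ± 0.07, adjusted p = 0.0129; lost without Ctrl replicate 1 or 3 or CytoD+CK replicate 2 or 3, 0.0502 to 0.0819). Ifnar1 was called after CytoD without CytoD replicate 1 or CK replicate 3 (0.046 and 0.0472). Ifnar2 and Il10rb were not called against Ctrl, but without CK replicate 3 Ifnar2 was called in all 3 comparisons (0.00612, 0.0326 and 0.0116; after CytoD also without CK replicate 2, 0.037) and Il10rb with both (0.0426).

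Of 13 signal transducers and feedback genes, 4 rose and 2 fell after CytoD, 2 rose and 4 fell after CK, and 4 rose and 2 fell with both. Among all genes, 19.1% rose and 18.9% fell after CytoD, 22.5% and 18.7% after CK, and 24.4% and 21.6% with both. Socs1, a feedback inhibitor of interferon receptors, was at 3.86 ± 0.177, 3.77 ± 0.222 and 3.87 ± 0.407 CPM against 1.8 ± 0.361 CPM in Ctrl and rose 2.14-fold, 2.09-fold and 2.14-fold. Socs3 rose 1.83-fold after CytoD, to 51.6 ± 7.16 CPM against 28.2 ± 1.05 CPM in Ctrl. After CK it was at 23.7 ± 0.411 CPM and was called lower (log2 -0.25 ± 0.09, adjusted p = 0.0473), a call lost without CK replicate 1 or 2, Ctrl replicate 2 or 3, CytoD replicate 3 or any CytoD+CK library (0.0528 to 0.104). Ptpn6, the phosphatase SHP-1, was at 0.839 ± 0.0629, 0.678 ± 0.294 and 0.791 ± 0.126 CPM against 0.418 ± 0.115 CPM in Ctrl and was called after CytoD and with both (adjusted p = 0.0282 and 0.035), calls that were lost without Ctrl replicate 1 or 3 or without replicate 2 or 3 of the treated group (0.0653 to 0.109 and 0.077 to 0.135). Irf5 fell 1.5-fold, 1.36-fold and 1.82-fold, to 7.13 ± 0.204, 7.82 ± 1.09 and 5.89 ± 0.708 CPM against 10.7 ± 1.03 CPM in Ctrl, with the call after CK lost without Ctrl replicate 2 (0.0569).

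**Figure D5:**
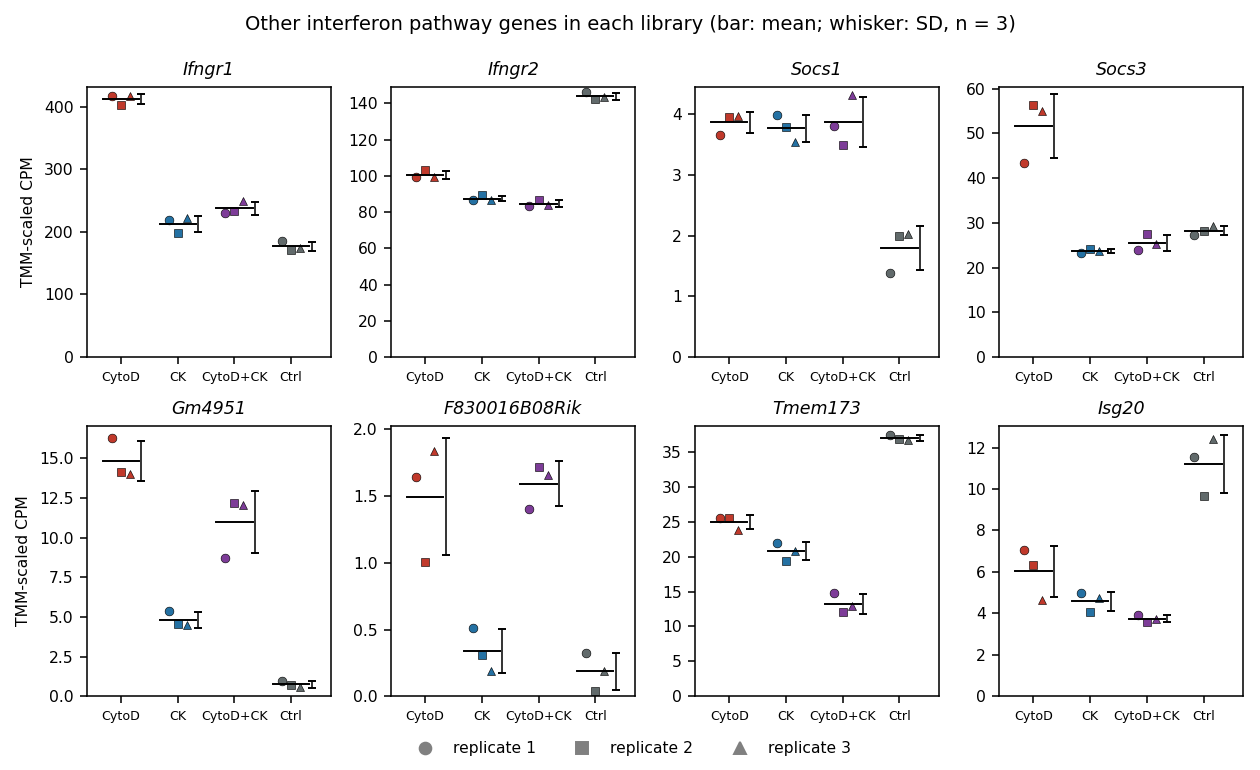
TMM-scaled CPM (y axis, from 0) of 8 pathway genes outside the list of 37 in CytoD, CK, CytoD+CK and Ctrl (x axis); points are libraries by replicate number, bars are means and whiskers the SD over 3 libraries. Ifngr1 is highest in CytoD at 403 to 416 CPM, Socs3 is highest in CytoD, and Gm4951 is lowest in Ctrl.

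Of 15 other antigen presentation genes tested, 1 rose and 4 fell after CytoD, 5 rose and 3 fell after CK, and 3 rose and 4 fell with both. Over all genes the shares were 19.1% and 18.9%, 22.5% and 18.7%, and 24.4% and 21.6%. Psmb9, an immunoproteasome subunit, rose 1.65-fold, 2.24-fold and 1.59-fold, at 4.35 ± 0.495, 5.88 ± 1.31 and 4.19 ± 0.997 CPM against 2.63 ± 0.342 CPM in Ctrl; the call after CytoD was lost without Ctrl replicate 3 (0.0622) and that with both without CytoD+CK replicate 1 or Ctrl replicate 2 or 3 (0.0777, 0.0549 and 0.0776). Psme1 and Psme2, which encode the proteasome activator PA28, rose 1.48-fold and 1.49-fold after CK and 1.39-fold and 1.36-fold with both. After CytoD, Psme1 was called only without CK replicate 3 among the fits that left out 1 library (adjusted p = 0.0161). Calr, the chaperone calreticulin, fell, with 726 ± 46.7, 800 ± 107 and 819 ± 83.8 CPM against 1127 ± 103 CPM in Ctrl. Erap1, which trims peptides for class I molecules, fell too, with 22.2 ± 0.861, 24.6 ± 4.23 and 20.9 ± 1.65 CPM against 30.9 ± 1.54 CPM in Ctrl (the call after CK was lost without Ctrl replicate 1 or 2, 0.0513 and 0.0549). Of 5 other immunity GTPases tested, 3 rose and 1 fell after CytoD, with Gbp11 among those that rose, by a call lost in 10 alternatives. After CK 1 rose and 2 fell, and with both 3 rose and 2 fell, beside the shares of all genes just given. Of these, 9930111J21Rik1, near Irgm1, was at 0.39 ± 0.163, 0.224 ± 0.0928 and 0.231 ± 0.111 CPM against 0.687 ± 0.144 CPM in Ctrl, and was called lower after CK and with both (adjusted p = 0.0112 and 0.00993; the call with both was lost without CytoD+CK replicate 2, 0.0514).

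Of 25 other antiviral genes, 5 rose and 2 fell after CytoD, 4 rose and 6 fell after CK, and 3 rose and 6 fell with both. For all genes these shares were 19.1% and 18.9%, 22.5% and 18.7%, and 24.4% and 21.6%. Isg20, an exonuclease that degrades viral RNA, was at 7.07, 6.34 and 4.66 CPM in CytoD, at 4.96, 4.06 and 4.73 CPM in CK, at 3.92, 3.58 and 3.71 CPM in CytoD+CK, and at 11.6, 9.68 and 12.4 CPM in Ctrl. All treated libraries were below Ctrl, and it fell by 0.90 ± 0.15, 1.29 ± 0.15 and 1.59 ± 0.15 on the log2 scale (adjusted p = 0.000472, 2.71e-05 and 2.87e-06). Slfn5 rose 2.33-fold after CytoD, to 5.57 ± 0.785 CPM against 2.39 ± 0.66 CPM in Ctrl. Slfn5 was not called after CK or with both (adjusted p = 0.148 and 0.0877), but was without Ctrl replicate 1 (0.027 and 0.0135). Cmpk2, a mitochondrial nucleotide kinase, was at 0.458 ± 0.107, 0.515 ± 0.0373 and 0.604 ± 0.121 CPM against 0.226 ± 0.0994 CPM in Ctrl and rose 2.63-fold with both (adjusted p = 0.00557). Its calls after CytoD and CK (adjusted p = 0.045 and 0.0187) were lost in 10 and 3 of the other fits, among them those without Ctrl replicate 2 (0.162 and 0.0791). Ifitm1, which blocks viral entry, was at 0.249 ± 0.0696, 0.0444 ± 0.0471 and 0.0934 ± 0.0585 CPM against 0.268 ± 0.0858 CPM in Ctrl; its call after CK (adjusted p = 0.0139) was lost without Ctrl replicate 1 (0.0534), and with both it was called without CK replicate 2 or 3 (0.0369 and 0.0335).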

How the data were processed

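Total RNA was sequenced as 12 libraries, and the deposited table holds for each gene a count and an RPKM value per library, per the file headers. The submitters' processing notes name CASAVA 1.9, TopHat, HTSeq and hg19. The last is a human build, while the symbols and coordinates of the table are mouse: of 20970 rows matched by name to the GENCODE M21 annotation (GRCm38), 99.4% overlapped the gene of that name. The deposited counts are raw read counts per gene, and all are even numbers. The authors' RPKM values are counts scaled by gene length and library total; that total was 1.122 to 1.162 times the sum of counts, and they were used only to compare levels between genes. Whether the counting used strand is not given in the sources used here.

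Counts were normalised by TMM and tested with edgeR 4.0.16 (R 4.3.3, limma 3.58.1), using filterByExpr with a minimum count of 10, 4 group means in one fit of all 12 libraries and Benjamini-Hochberg adjustment over 13534 genes at 0.05. SE is the log2 change divided by the square root of the F statistic. The procedure was tested on simulated data. The 7 comparisons were each treatment against Ctrl, the treatments against each other, and the interaction. Genes were matched by symbol. All 37 genes were accounted for; others were named as up to 3 called genes per list with the largest change after CytoD and after CK, plus interferon ligands and receptors; 1 gene that this rule names is not reported here. Members and lists were chosen with earlier results of these data known, and the neighbourhood clusters after the values were seen. Alternatives were RLE size factors, no filter, a correction for gene length, halved counts, only the groups compared, a replicate block, DESeq2 1.42.0 and leaving out each library. Sums of counts were 48930210 to 69269716 per library. The limit for a count of 0 covers counting error only and is too low if fragments were counted more than once.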

Additional observations from a re-analysis of the deposited data

Results flagged for a closer look

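For 6 genes the change with CytoD differed by whether CK was present, as called by edgeR's quasi-likelihood interaction test over all genes. The difference, the log2 change with CytoD in the presence of CK minus that in its absence, was -3.17 for Iigp1, -1.94 for Gbp6, -1.63 for Gbp3, -0.90 for Nlrc5, -0.62 for Tap1 and 0.57 for Irgm1. The calls of Irgm1, Gbp3 and Gbp6 were lost in 5, 3 and 4 of the 12 fits that left out 1 library, with the libraries and adjusted p given above.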

How the results depend on the processing

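Of 224 pairs of a gene and a comparison, 66 were called, 38 of these in every alternative run, and none reversed; 35 uncalled pairs were called in some alternative and 54 changed sign. When only the groups compared were fitted, CytoD+CK against CK had 459 genes called in place of 1570 and 2 of the 32 listed genes in place of 6, and CytoD against CK had 3558 in place of 5380 and 6 in place of 10. The same setting raised other counts, to 7344 genes in place of 5136 and 19 listed genes in place of 13 for CytoD against Ctrl, to 7408 in place of 6225 and 16 in place of 12 for CytoD+CK against Ctrl, and to 5578 in place of 4067 and 12 in place of 8 for CytoD+CK against CytoD, while CK against Ctrl had 3982 in place of 5565 and 9 in place of 11. The causes were not tested. Leaving out 1 library at a time, the listed genes called numbered 8 to 15 for CytoD against Ctrl (8 without CytoD replicate 1 or Ctrl replicate 3), 3 to 10 for CytoD+CK against CytoD, 2 to 8 for CytoD+CK against CK, 4 to 10 for CytoD against CK and 3 to 7 for the interaction (3 without Ctrl replicate 2 or 3). All genes called ranged from 745 to 2563 for CytoD+CK against CK and from 1094 to 3396 for the interaction. With a replicate block the listed genes called were 17, 12 and 13 against Ctrl (CytoD, CK, both; 13, 11 and 12 without it), 8 for CytoD+CK against CytoD, 6 for CytoD+CK against CK, 11 for CytoD against CK and 8 for the interaction. The block added the calls of H2-K1 after CytoD (adjusted p = 0.00165) and with both (0.000738), Ifit3 after CytoD (0.00763) and CK (0.0125), Isg15 (0.04) and Irf9 (0.0306) after CytoD, Ifih1 for CytoD against CK (0.0493), and H2-K1 (0.0107) and H2-D1 (0.0247) for the interaction, and ended none among the 32 genes. Replicate numbers were not taken to pair libraries: 4 of 18 same-numbered pairs had deviations correlated above 0.1 (range -0.0789 to 0.256), and 8 of 12 libraries correlated best with their own number, a hint from the data only. RLE size factors, no filter, length correction, halved counts and DESeq2 kept every such count within 1.5 times. Genes under about 1 CPM rest on few counts, and 3 libraries a group limit every call.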

Other observations

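Of 12 nucleic acid sensing genes tested outside the list, 5 were called higher and 1 lower after CytoD, 4 and 2 after CK, and 3 and 2 with both. Of all genes, 19.1% were called higher and 18.9% lower after CytoD, 22.5% and 18.7% after CK, and 24.4% and 21.6% with both. Tmem173, which encodes STING, the adaptor of cytosolic DNA sensing, was at 25.6, 25.6 and 23.8 CPM in CytoD, at 22.0, 19.4 and 20.8 CPM in CK, at 14.9, 12.1 and 12.9 CPM in CytoD+CK, and at 37.5, 36.8 and 36.7 CPM in Ctrl. Its 4 groups did not overlap, and it fell by 0.57 ± 0.08, 0.83 ± 0.08 and 1.48 ± 0.08 on the log2 scale (edgeR adjusted p = 0.000158, 5.73e-06 and 3.2e-08). Ifi204, a DNA sensor of the PYHIN family, was at 11.9 ± 2.1, 5.53 ± 1.26 and 4.45 ± 1.23 CPM in CytoD, CK and CytoD+CK, against 10.9 ± 2.18 CPM in Ctrl, and fell 1.98-fold after CK and 2.46-fold with both. Trex1, an exonuclease that clears cytosolic DNA, rose 1.36-fold, 1.43-fold and 1.44-fold. Tlr3, an endosomal RNA receptor, rose 1.45-fold after CytoD (adjusted p = 0.018; lost without CytoD replicate 3 or Ctrl replicate 2 or 3, 0.0596, 0.0637 and 0.0538). Aim2, at 0.234 ± 0.0281 CPM in CytoD against 0.0647 ± 0.0582 CPM in Ctrl, had an adjusted p of 0.046 that was lost in 10 alternatives (0.051 to 0.126). Aim2, counted among the 5 genes higher after CytoD, passed the filter only through that group, so its call is not separate evidence of a rise.

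The chemokine Ccl2, which attracts monocytes, was at 26.5, 22.2 and 23.4 CPM in CytoD, at 52.5, 67.7 and 77.8 CPM in CK, at 56.5, 39.8 and 38.3 CPM in CytoD+CK, and at 36.2, 38.4 and 45.5 CPM in Ctrl. It fell by 0.74 ± 0.16 after CytoD and rose by 0.72 ± 0.16 after CK (adjusted p = 0.00354 and 0.00349), while CytoD+CK overlapped Ctrl (adjusted p = 0.448). Cxcl9 stayed under 0.2 CPM in each group's mean, and its calls after CK and with both (adjusted p = 0.048 and 0.0378) were lost in 12 and 8 alternatives. Cxcl9 passed the filter only through libraries of CK and CytoD+CK, the groups where it was called, so these calls are not separate evidence of a rise.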
